A study of Mus musculus with 6 samples.

Results

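Atf4 and 9 genes of its stress and amino acid programme were followed through 6 mouse muscle stem cell libraries sequenced for RNA. The 10 genes were chosen by symbol, and all 10 were found among the 14515 genes of the deposited table. They comprise the transcription factors Atf4 and Ddit3, the stress regulators Trib3, Chac1 and Sesn2, and the amino acid and folate enzymes Asns, Psat1, Phgdh, Shmt2 and Mthfd2. The libraries carry 3 genotype labels with 2 libraries each. These are wild type (wt), mdx, a dystrophin mutant used as a model of Duchenne muscular dystrophy, and mdx with a Ripk3 change written mdx/Ripk3mKO. The sources used here give no age of the animals, no meaning of mKO and no Cre driver. The sample labels name sorted quiescent satellite cells for every library, with 10000 to 20000 cells in each. The series text describes something else, namely activated wild-type cells kept for 72 hours below a transwell with cells of the 3 genotypes. On that account the genotype belongs to the cells above, so the groups are called here by their labels alone. Whether both libraries of a group stem from different animals or cultures is not said, so p-values measure only how far these libraries spread, and that spread may be technical.

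Atf4 is the main transcription factor of the integrated stress response. Kinases that sense amino acid shortage, misfolded protein in the endoplasmic reticulum, haem shortage or double-stranded RNA phosphorylate the translation factor eIF2. General translation then falls, while translation of the Atf4 mRNA rises through upstream reading frames, so Atf4 protein can change without its mRNA. Atf4 pairs with C/EBP factors at C/EBP-ATF response elements of its target genes. In satellite cells, phosphorylation of eIF2 is known to be part of the quiescent state, and proliferating myoblasts depend on serine and one-carbon metabolism for nucleotide synthesis.

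The upstream sequences of Chac1 and Asns are shown because they alone among the 10 genes held a C/EBP-ATF response element, TGATGNAA on either strand, within 250 bases before the RefSeq start. Promoters of all 10 genes were found in RefSeq (GRCm38.p6, the assembly of mm10), in 11 windows since Psat1 has 2. The element was present in 2 of these 11 windows and in 3.45% of 32851 promoter windows of the same length. The cAMP response element TGACGTCA was in none of the 11 (1.55% of all windows), nor was the E-box CACGTG (6.02%). A match describes letters and is no evidence of binding, and elements may lie outside the window. In Chac1 the element lies on the opposite strand, 193 to 186 bases before the RefSeq start, which lies inside the gene's bounds in the deposited table. The sequence below is chr2:119350992-119351228 on the plus strand, which ends at the base before the gene's start in the deposited table, with the element in capitals.
Chac1: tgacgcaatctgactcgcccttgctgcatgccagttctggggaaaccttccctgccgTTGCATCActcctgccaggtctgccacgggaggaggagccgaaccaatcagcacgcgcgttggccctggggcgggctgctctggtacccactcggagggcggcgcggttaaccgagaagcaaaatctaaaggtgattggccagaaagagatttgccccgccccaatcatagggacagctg
In Asns the element lies on the gene's own strand, 23 to 16 bases before the RefSeq start and inside the gene's bounds in the deposited table. The 30 bases around it are chr6:7693214-7693243, minus strand.
Asns: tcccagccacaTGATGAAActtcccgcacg

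Values appear, from the pattern of their whole numbers, to be read counts that were scaled between libraries and rounded by the authors. They are called scaled counts here. Their totals ran from 20611974 to 21037153 per library, and estimated totals before scaling ran from 18002300 to 25345600, the 2 highest in the mdx/Ripk3mKO libraries. Both mdx columns carry the same header and were numbered 1 and 2 in column order. Ripk3 had 45 and 32 scaled counts in wt, 23 and 36 in mdx, with 17 and 33 in mdx/Ripk3mKO, so it did not check the labels. Dmd, the dystrophin gene, had 324 and 432 in wt, 531 and 692 in mdx, with 474 and 294 in mdx/Ripk3mKO, and did not set both mdx-bearing groups apart from wt. A whole-gene value can also miss a partial deletion or a point mutation. Library 1 of mdx/Ripk3mKO stood apart in sex-linked genes, with 6918 scaled counts of Xist against 164 to 666 elsewhere and with 4 Y-linked genes at 22.5% to 25.2% of the mean of the other libraries. Myog lay between 1300 and 1698 CPM (scaled count relative to the library's total, on the usual counts-per-total scale) and Mki67 between 659.9 and 820.1 CPM in all 6 libraries. Those are markers of differentiating and of dividing cells, at levels that go against the label of resting cells. Pax7, which defines satellite cells, lay between 84.6 and 102.8 CPM, and the satellite cell marker Calcr is not analysed here. Markers of other cells were low. Over the libraries the summed level was 2.46 to 3.38 CPM for 2 of 5 fibroblast markers, 0.916 to 1.46 CPM for 3 of 5 endothelial markers and 1.33 to 2.03 CPM for 2 of 6 leukocyte markers, and the remaining markers of these lists are not analysed here. For 3 of 5 pericyte and smooth muscle markers the sum was 80.3 to 101.9 CPM, most of it from Cspg4. In such bulk samples, fewer cells of a type and less RNA per cell cannot be told apart.

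Between the libraries labelled mdx and wt, none of the 10 genes passed the test. The 10 log2 fold changes lay between -0.10 for Shmt2 and 0.13 for Sesn2, with a median of -0.02 against -0.00222 over all 14077 genes tested. On the lower side were 7 genes, and 3 were on the higher. By limma with Benjamini-Hochberg adjustment over all genes, 0 of the 10 had an adjusted p under 0.05, where 0.0071% of all genes did, and 0 of the 10 had an unadjusted p under 0.05, where 6.46% of all genes did. The 2 mdx libraries lay above both wt libraries for 2 of the 10 genes and below them for 2, and over all genes these shares were 17.6% and 18.3%. The counts of non-overlapping genes were thus near those of genes at large.

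Between mdx/Ripk3mKO and mdx no member passed either, and Phgdh and Shmt2 came closest. Phgdh was 0.16 ± 0.06 (SE) higher and Shmt2 0.12 ± 0.05 higher on the log2 scale, and Asns was the lowest at -0.08 ± 0.05. The median was 0.04, with 7 of the 10 genes on the higher side, against -0.00209 over all genes. The count was 0 of 10 at an adjusted p under 0.05 (limma), where 0.206% of genes passed, and 2 of 10 at an unadjusted p under 0.05, where 11.6% of genes did. The mdx/Ripk3mKO libraries lay above both mdx libraries for 4 of the 10 genes (Atf4, Sesn2, Phgdh and Shmt2), where 21% of genes did, and below them for 1 (Asns), where 20.3% did.

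Between mdx/Ripk3mKO and wt, Sesn2 was the member with the largest difference, 0.19 ± 0.08 higher. The median over the 10 genes was 0.00923, with 5 higher and 5 lower, against 0.00123 over all genes. No gene of the table passed the threshold in this comparison (0% by limma, 0 of the 10 members), and 1 of the 10 had an unadjusted p under 0.05 where 3.32% of genes did. The groups did not overlap for 2 members on the higher side (Sesn2 and Shmt2, against 14.4% of genes) and 1 on the lower (Chac1, against 15.1%). The F-test over the 3 genotypes called 0.0781% of all genes and none of the 10, and 1 member, Phgdh, had an unadjusted p under 0.05 (0.0475, adjusted p = 0.633, limma). The 3 comparisons share libraries and are not independent of each other.

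The intervals give a rough range for a missed change, gene by gene. They are not adjusted for their number and rest on the spread of these libraries, which may be technical. Over all 30 fold changes of the 10 genes, the 95% intervals stayed between 0.734-fold and 1.29-fold (limma). For the 6 most abundant genes (Atf4, Psat1, Shmt2, Asns, Phgdh and Mthfd2), they stayed between 0.867-fold and 1.21-fold. Ddit3, the gene with the fewest counts, set the lower bound and Trib3 the upper one. Changes within these bounds may have been missed with 2 libraries a group. The bounds are not a detection limit, since a call needed an adjusted p under 0.05 over all genes.

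**Figure D1:**
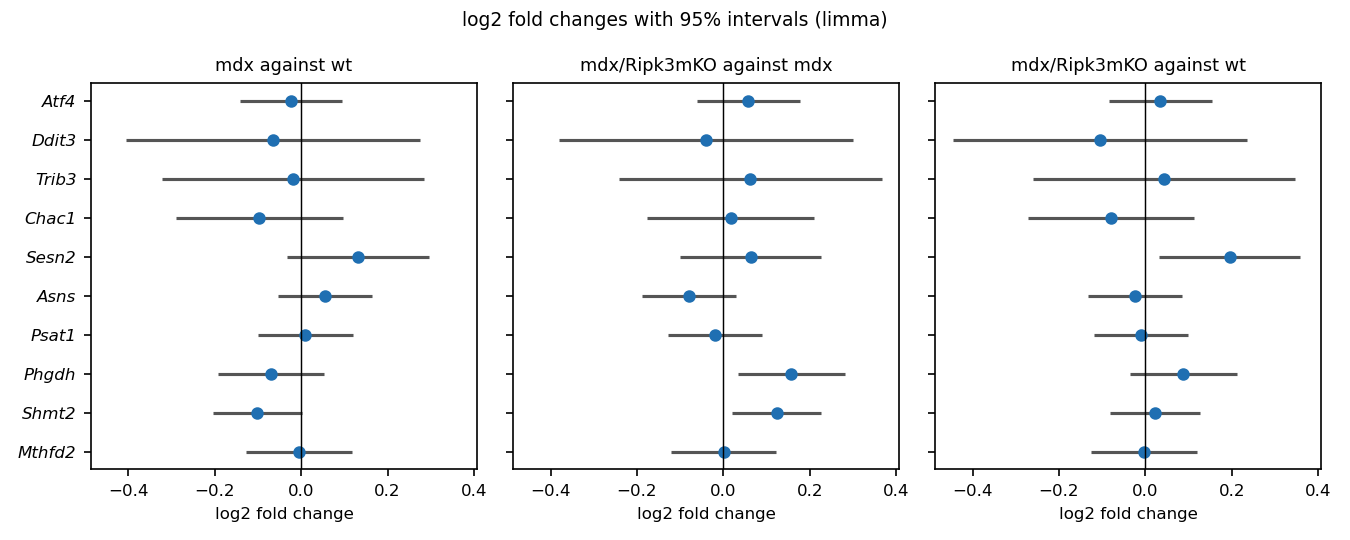
Points are log2 fold changes of the 10 genes on the log2(scaled count + 1) scale and bars are 95% intervals from limma, in 3 panels for the 3 comparisons with 2 libraries a group. Intervals exclude 0 for Phgdh and Shmt2 in the middle panel and for Sesn2 in the right one, and none of these passed after adjustment over all genes.

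Of the transcription factors, Atf4 (ENSMUSG00000042406, mm10 chromosome 15, 80255184 to 80257540) was by far the more abundant. It had 10435 and 9477 scaled counts in the wt libraries, 10084 and 9496 in mdx, with 10260 and 10118 in mdx/Ripk3mKO. The groups of wt and mdx overlapped, and the 2 wt libraries spanned a wider range than all 3 group means, which were 9956, 9790 and 10189. The log2 fold change was -0.02 ± 0.06 in mdx against wt (adjusted p = 0.974, limma), 0.06 ± 0.06 in mdx/Ripk3mKO against mdx and 0.04 ± 0.06 in mdx/Ripk3mKO against wt. Atf4 was the 303rd most abundant gene of the table by mean scaled count.

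Ddit3 encodes CHOP, a factor that Atf4 induces and that takes part in cell death under lasting endoplasmic reticulum stress (ENSMUSG00000025408, chromosome 10, 127290774 to 127296288). Its scaled counts were 102 and 124 in wt, 105 and 110 in mdx, with 102 and 107 in mdx/Ripk3mKO. The 3 groups overlapped, and the highest and lowest value both came from the wt group, the lowest tied with a mdx/Ripk3mKO library. Its largest difference was -0.11 ± 0.16, between mdx/Ripk3mKO and wt (adjusted p = 1, limma). Ddit3 shares 68 bases on the opposite strand with Mars, a tRNA synthetase gene at 2779 to 3043 scaled counts. The sources used here do not say whether reads were counted by strand, so reads in the shared bases cannot be assigned. GENCODE M21 also lists a second entry named Ddit3 on the same strand, sharing 2925 bases with this one, and reads could be split between both or left uncounted, so the level of Ddit3 is uncertain.

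Among the stress regulators, Trib3 is a pseudokinase that Atf4 and Ddit3 induce and that dampens their activity (ENSMUSG00000032715, chromosome 2, 152337422 to 152344032). It had 190 and 161 scaled counts in wt, 161 and 185 in mdx, with 165 and 197 in mdx/Ripk3mKO. All 3 groups overlapped over nearly the same range, and its fold changes were -0.02, 0.06 and 0.04, each ± 0.14. Trib3 had the widest relative range of the 10 genes, 1.22-fold from its lowest to its highest library.

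Chac1 degrades glutathione and is a target of Atf4 with the element shown above (ENSMUSG00000027313, chromosome 2, 119351229 to 119354381). Its scaled counts were 372 and 368 in wt, 338 and 354 in mdx, with 354 and 346 in mdx/Ripk3mKO. Both wt libraries lay above the other 4. The difference was -0.10 ± 0.09 for mdx against wt (adjusted p = 0.888, limma) and -0.08 ± 0.09 for mdx/Ripk3mKO against wt (adjusted p = 1).

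Sesn2 encodes a leucine sensor that restrains the growth kinase complex mTORC1 and is induced by Atf4 and by p53 (ENSMUSG00000028893, chromosome 4, 132492032 to 132510501). It had 527 and 508 scaled counts in wt, 578 and 556 in mdx, with 601 and 584 in mdx/Ripk3mKO. The 3 groups did not overlap, in the order wt, mdx, mdx/Ripk3mKO. Shmt2 was the other member with 3 separate groups, in another order, and 7.43% of all genes tested had 3 separate groups in any order. Sesn2 in mdx/Ripk3mKO exceeded wt by 0.19 ± 0.08 (95% interval 0.03 to 0.36, unadjusted p = 0.023, adjusted p = 1, limma). For mdx over wt it was 0.13 ± 0.08 (adjusted p = 0.815), and for mdx/Ripk3mKO over mdx 0.06 ± 0.08. Without mdx/Ripk3mKO library 1, the value against wt was 0.17. Sesn2 shares 6089 bases with Gm12981, on the same strand in GENCODE M21. Over the alternatives tried, the adjusted p against wt lay between 0.733 and 1.

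**Figure D2:**
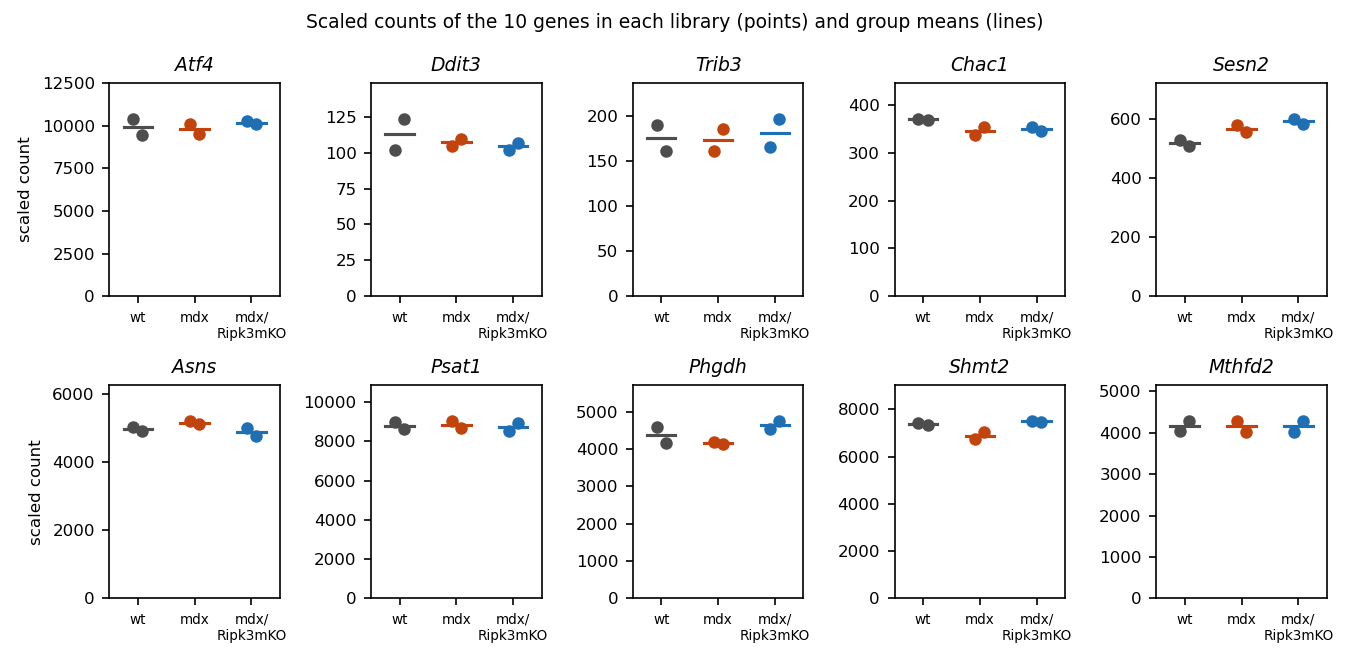
Each panel shows 1 gene with its scaled count on a linear axis from 0, in the 2 libraries labelled wt, mdx and mdx/Ripk3mKO (points) with the group mean (line). Levels differ between libraries by at most 1.22-fold in any panel, and Sesn2 and Shmt2 are the genes whose 3 groups do not overlap.

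Of the enzymes, Asns makes asparagine from aspartate and glutamine (ENSMUSG00000029752, chromosome 6, 7675169 to 7693254). Its scaled counts were 5020 and 4900 in wt, 5205 and 5103 in mdx, with 5003 and 4757 in mdx/Ripk3mKO. The mdx libraries lay above all 4 others, by 0.06 ± 0.05 against wt (adjusted p = 0.888, limma) and by the 0.08 given above against mdx/Ripk3mKO (adjusted p = 0.59).

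Phgdh and Psat1 catalyse the first and the second step of serine synthesis from a glycolytic intermediate. Phgdh (ENSMUSG00000053398, chromosome 3, 98313170 to 98339990) had 4580 and 4158 scaled counts in wt, 4187 and 4129 in mdx, with 4526 and 4755 in mdx/Ripk3mKO. Both mdx/Ripk3mKO libraries exceeded both mdx libraries, while the wt libraries reached into both groups. The difference between mdx/Ripk3mKO and mdx had a 95% interval of 0.04 to 0.28 (unadjusted p = 0.0154, adjusted p = 0.311, limma). Without mdx/Ripk3mKO library 1 it was 0.19. Psat1 (ENSMUSG00000024640, chromosome 19, 15904678 to 15925059) had 8982 and 8603 in wt, 9048 and 8656 in mdx, with 8532 and 8932 in mdx/Ripk3mKO. Its groups overlapped throughout and its range of 1.06-fold was the narrowest of the 10 genes.

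Shmt2 and Mthfd2 work in mitochondria and pass the one-carbon unit of serine to folate for nucleotide synthesis. Shmt2 (ENSMUSG00000025403, chromosome 10, 127517123 to 127522444) had 7422 and 7347 scaled counts in wt, 6748 and 7022 in mdx, with 7516 and 7480 in mdx/Ripk3mKO. The mdx libraries were the 2 lowest of the 6 and the mdx/Ripk3mKO libraries the 2 highest, with no overlap between groups. Shmt2 was 0.10 ± 0.05 lower in mdx than in wt (log2 fold change -0.10, unadjusted p = 0.0551, adjusted p = 0.78, limma). The difference between mdx/Ripk3mKO and mdx had a 95% interval of 0.02 to 0.23 (unadjusted p = 0.0231, adjusted p = 0.348), and without mdx/Ripk3mKO library 1 it was 0.12. Of the pericyte markers, Cspg4 was also lowest in the mdx libraries, at 1354 and 1185 scaled counts against 1602 to 1773 in the other 4. Unlike any member, Cspg4 was called in mdx/Ripk3mKO against mdx (0.44, adjusted p under 0.05, limma), where 0.206% of genes passed. Pdgfrb went the other way, at 409 and 444 in mdx against 248 to 333, as did Rgs5, at 22 and 27 against 11 to 20. The part of these in the Shmt2 values was not tested. Mthfd2 (ENSMUSG00000005667, chromosome 6, 83305691 to 83317606) had 4043 and 4292 in wt, 4280 and 4030 in mdx, with 4025 and 4290 in mdx/Ripk3mKO. In each group 1 library was low and 1 high by about the same amount, and the group means were 4167.5, 4155 and 4157.5. Mthfd2 shares 2799 bases on the same strand with Gm43890, a gene at 12 to 23 scaled counts. Shmt2 overlaps Ndufa4l2 by 32 bases on the opposite strand, a gene not analysed here.

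Per kilobase of exon, Atf4 stood at 4232 scaled counts on average, followed by Shmt2 at 2334, Psat1 at 2067, Asns at 1827, Phgdh at 1766 and Mthfd2 at 1193. Ddit3 and the stress regulators formed a clearly lower group, with Chac1 at 217, Sesn2 at 161, Trib3 at 83.1 and Ddit3 at 63.2. Neighbours in this order did not overlap over the 6 libraries except Asns (1739 to 1903) and Phgdh (1661 to 1913). Exon lengths came from GENCODE M21, whose bounds for Psat1 and Mthfd2 are wider than those in the deposited table. The levels of these 2 genes per kilobase may thus be too low. Exons of all transcripts of a gene were joined. For Atf4 this gave 2358 bases, as much as its whole span in the deposited table, so its level may be too low as well.

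On the log2 scale the widest difference within a group was that of Ddit3 in wt, where library 1 over library 2 gave -0.28. Trib3 followed, at -0.26 in mdx/Ripk3mKO and 0.24 in wt, and the wt pair of Atf4 differed by 0.14. Set against the standard error of counting alone, taken from the estimated reads, none of the 12 pairs of Ddit3, Trib3, Chac1 and Sesn2 differed by more than 2 such errors, and 12 of the 18 pairs of the 6 abundant genes did. The counting error was 0.0764 to 0.204 for the former and 0.0184 to 0.0335 for the latter, so the same difference counts for more in an abundant gene. In each of the 3 groups, 4 of the 10 members differed by more than 2 counting errors. Among all tested genes at 100 or more in both libraries, 22.45% did in wt, 22.48% in mdx and 30.97% in mdx/Ripk3mKO. Over all 6 libraries the log2 standard deviation ran from 0.04 for Psat1, a value that 5.43% of tested genes fell below, to 0.13 for Trib3, which 59.7% fell below.

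GC content went along with the sign of the members' differences between mdx/Ripk3mKO and mdx. The median GC content of the longest transcript was 49.7% over the tested protein-coding genes. The members above it were 6 (Sesn2 58.7%, Trib3 58.2%, Chac1 57.4%, Shmt2 57.4%, Phgdh 57.2% and Atf4 55.5%). All 6 were on the higher side, from 0.02 to 0.16. Of the 4 members at or below it (Mthfd2 49.6%, Psat1 48.4%, Asns 47.7% and Ddit3 45.6%), 3 were on the lower side and Mthfd2 was at 0.00079. This is a description over 12378 protein-coding genes that share libraries: the same fold change correlated with GC content (Spearman 0.32) and with exon length (Spearman -0.17). After each library was corrected for GC content and exon length, 2 of the 6 GC-rich members were higher, Phgdh at 0.08 (adjusted p = 0.672, limma) and Shmt2 at 0.04 (adjusted p = 0.826), and the median over the 10 genes moved from 0.04 to -0.02. Sesn2 moved from 0.06 to -0.03 in this comparison and, against wt, from 0.19 to 0.14.

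**Figure D3:**
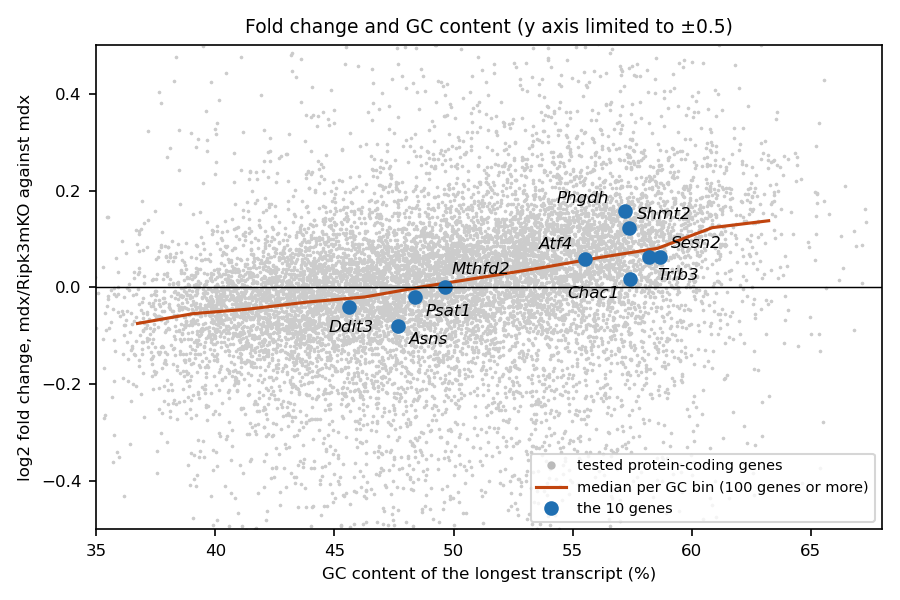
The GC content of each gene's longest transcript in percent is plotted against its log2 fold change between mdx/Ripk3mKO and mdx, with tested protein-coding genes in grey, their median per GC bin as a line and the 10 genes in blue. The 6 members above 49.7% GC lie above 0, and 3 of the 4 others lie below it.

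The wider pathway was read through 10 lists of 127 tested genes, with none called in any comparison (limma). At an unadjusted p under 0.05 there were 5 genes in mdx against wt, 10 in mdx/Ripk3mKO against mdx and 3 in mdx/Ripk3mKO against wt. These are 3.94%, 7.87% and 2.36% of the lists, where all genes gave 6.46%, 11.6% and 3.32%. The medians of the lists below stand beside those of all genes, -0.00222, -0.00209 and 0.00123 in the same order.

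The 4 kinases that phosphorylate eIF2 were all expressed. The haem-regulated kinase Eif2ak1 had 1154 to 1224 scaled counts over the 6 libraries, the amino acid sensor Eif2ak4 (GCN2) 645 to 724, the RNA sensor Eif2ak2 (PKR) 312 to 364, and the endoplasmic reticulum sensor Eif2ak3 (PERK) 240 to 286. Ppp1r15a and Ppp1r15b, which bring the phosphatase to eIF2, had 1001 to 1213 and 2703 to 2824. Ppp1r15a, the stress-induced one, had its smallest p in mdx/Ripk3mKO against wt, at 0.15 ± 0.08 (adjusted p = 1, limma). Gcn1l1, the partner through which GCN2 senses stalled ribosomes, was at -0.12 ± 0.05 in mdx against wt (adjusted p = 0.768), and 0610009O20Rik, also named Dele1, which relays mitochondrial stress, was at 0.15 ± 0.07 in mdx/Ripk3mKO against mdx. The list of sensors had medians of 0.0046, 0.04 and -0.01 in mdx against wt, mdx/Ripk3mKO against mdx and mdx/Ripk3mKO against wt, with 5, 6 and 4 of 9 genes on the higher side.

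Of 9 subunits of eIF2 and its exchange factor eIF2B, 5, 7 and 7 were on the higher side in the same order, with medians of 0.0059, 0.0069 and 0.03. Eif2b1, Eif2s2 and Eif2b5 had the smallest p, all in mdx/Ripk3mKO against mdx, at 0.16 ± 0.06, -0.11 ± 0.05 and 0.09 ± 0.05.

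Among the C/EBP and related factors that pair with or regulate Atf4, 6 of 10 were on the higher side in each comparison, with medians of 0.02, 0.03 and 0.04. Cebpg, a partner of Atf4, had 832 and 811 scaled counts in wt, 903 and 918 in mdx, with 785 and 832 in mdx/Ripk3mKO. The mdx libraries were the 2 highest, and the difference of mdx/Ripk3mKO from mdx was -0.17 ± 0.07 (adjusted p = 0.35, limma). Crebrf, a regulator of the unfolded protein response, was at -0.40 ± 0.14 (adjusted p = 0.291) and Atf5 at 0.11 ± 0.06 in the same comparison.

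Other Atf4 target genes held the largest differences of the 127 genes, in Fgf21, a secreted hormone released by stressed muscle. Its scaled counts were 790 and 820 in wt, 1199 and 1256 in mdx, with 959 and 547 in mdx/Ripk3mKO. Both mdx libraries lay above all others. On the log2 scale, though not in scaled counts, the 2 mdx/Ripk3mKO libraries differed from each other more than the wt mean did from the mdx mean. For mdx over wt Fgf21 was at 0.61 ± 0.31 (adjusted p = 0.832, limma with all 6 libraries) and at -0.76 ± 0.31 in mdx/Ripk3mKO against mdx (adjusted p = 0.499). The first difference passed when the fit held only the wt and mdx libraries (0.61, adjusted p = 0.000671), or lacked mdx/Ripk3mKO library 1 or 2 (adjusted p = 0.00089 and 0.000671). The second was -1.16 without mdx/Ripk3mKO library 1 (adjusted p = 1.36e-05) and -0.36 without library 2 (adjusted p = 0.143). For the second difference, a lone mdx/Ripk3mKO library is assumed to vary as little as the wt and mdx pairs. The 2 mdx/Ripk3mKO values, 959 and 547, go against that. For the first, these fits take the spread from the wt and mdx pairs alone, without that of the mdx/Ripk3mKO pair. Library 1 is the one with high Xist, and the part of that in the Fgf21 values was not tested.

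Of the 13 tested targets in that list, 10, 5 and 7 were on the higher side in the 3 comparisons, with medians of 0.08, -0.02 and 0.0097. The lipoprotein receptor Vldlr was at -0.28 ± 0.09 in mdx/Ripk3mKO against mdx (adjusted p = 0.234, limma), with -0.41 without mdx/Ripk3mKO library 1 (adjusted p = 0.0351) and -0.15 without library 2 (adjusted p = 0.647), where again a lone library stands for its group and the wt and mdx pairs give the spread. The stress cytokine Gdf15 was at 0.37 ± 0.14 (adjusted p = 0.329), with 121 and 128 scaled counts in mdx and 154 and 168 in mdx/Ripk3mKO.

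Amino acid transporters had medians of -0.06, 0.01 and -0.03, with 4, 7 and 5 of 11 genes on the higher side. The glutamine carrier Slc1a5 had 1695 and 1726 scaled counts in wt, 1442 and 1596 in mdx, with 1595 and 1633 in mdx/Ripk3mKO, and was at -0.17 ± 0.06 in mdx against wt (adjusted p = 0.65, limma). The glycine carrier Slc6a9 was at -0.27 ± 0.15 there, and the leucine carrier Slc7a5 at 0.12 ± 0.05 in mdx/Ripk3mKO against mdx. In the list of other serine, one-carbon and amino acid synthesis genes, 6, 10 and 9 of 16 were on the higher side, with medians of -0.03, 0.03 and 0.01. Glutamine synthetase (Glul) was at 0.22 ± 0.08 in mdx against wt (adjusted p = 0.639), and the proline synthesis enzyme Pycr1 was at 0.20 ± 0.10 in mdx/Ripk3mKO against wt (adjusted p = 1).

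All 20 cytosolic aminoacyl-tRNA synthetase genes, many of them Atf4 targets, were tested. In the 3 comparisons 10, 12 and 14 were on the higher side, with medians of 0.0046, 0.02 and 0.03. Qars, Vars and Wars, for glutamine, valine and tryptophan, were at 0.15 ± 0.05, 0.14 ± 0.05 and 0.11 ± 0.06 in mdx/Ripk3mKO against mdx (adjusted p = 0.319, 0.34 and 0.472, limma).

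The Atf6 and Xbp1 arms of the unfolded protein response run parallel to Atf4. Of their 18 genes, 5, 11 and 10 were on the higher side, with medians of -0.01, 0.02 and 0.0054. The endoplasmic reticulum chaperone calreticulin (Calr) was at 0.11 ± 0.05 in mdx/Ripk3mKO against mdx, and the chaperones Dnajb9 and Hyou1 were at 0.14 ± 0.08 and -0.09 ± 0.05 in mdx against wt. Of 12 genes of mTORC1 and amino acid sensing, 5, 9 and 10 were on the higher side, with medians of -0.01, 0.06 and 0.04. The other sestrins, Sesn1 and Sesn3, did not share the order of Sesn2 over the groups. Sesn1 had 307 and 334 scaled counts in wt, 397 and 371 in mdx, with 370 and 297 in mdx/Ripk3mKO, at 0.26 ± 0.11 in mdx against wt (adjusted p = 0.74, limma). Sesn3 had 1289 and 1199, 1211 and 1143, and 1326 and 1347 in the same order, at 0.18 ± 0.06 in mdx/Ripk3mKO against mdx (adjusted p = 0.291), and Gatsl2, also named Castor2, a relative and partner of the arginine sensor Castor1, was at 0.16 ± 0.07 there. Of 9 genes of the mitochondrial stress response, 5, 5 and 7 were on the higher side, with medians of 0.02 in each comparison. The mitochondrial protease Yme1l1 was at 0.09 ± 0.05 and Clpx at 0.08 ± 0.06 in mdx against wt, and the chaperone Trap1 at 0.07 ± 0.06 in mdx/Ripk3mKO against mdx.

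**Figure D4:**
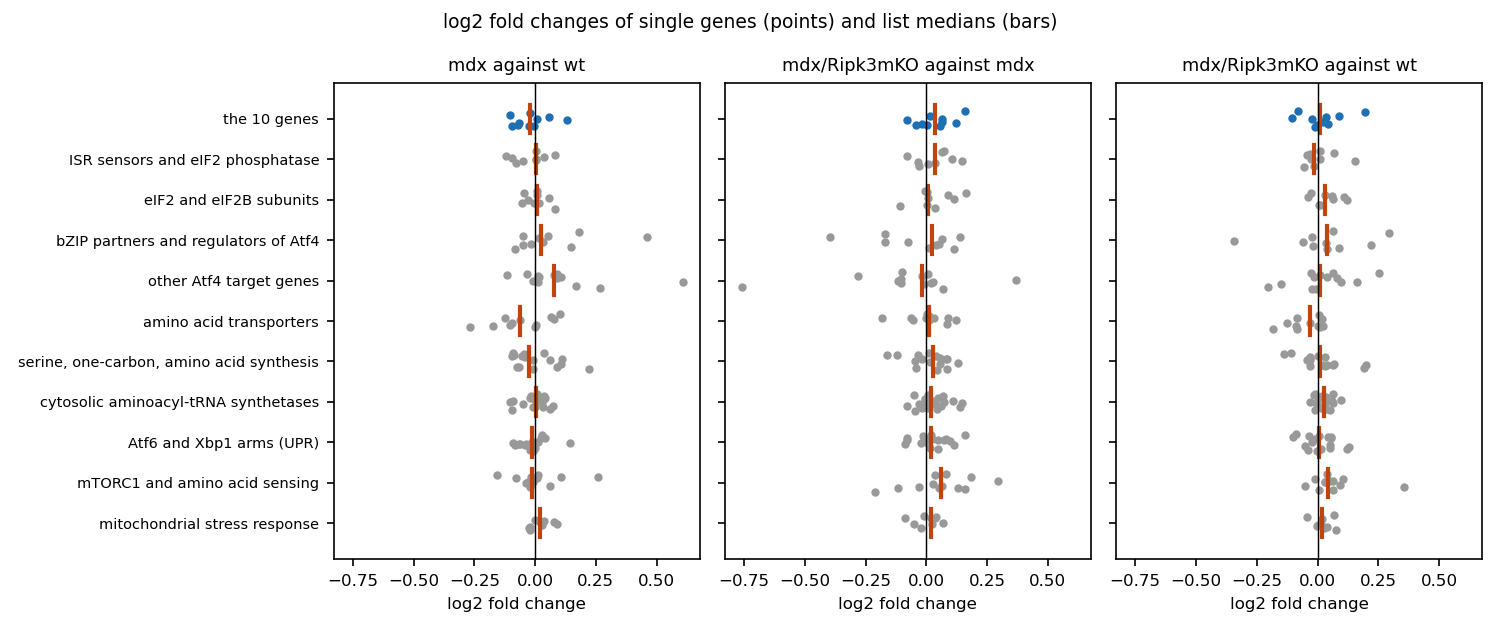
Points are log2 fold changes of single genes in 10 pathway lists (grey) and of the 10 genes (blue), in 3 panels for the 3 comparisons, and red bars are list medians, with the vertical scatter of points random. Every list median lies between -0.06 and 0.08, and Fgf21 is the outermost point at 0.61 in the left panel and -0.76 in the middle one.

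The mean of the 10 members' standardised log2 values was highest in mdx/Ripk3mKO library 2 (0.36 standard deviations) and wt library 1 (0.30), and lowest in mdx library 2 (-0.32) and wt library 2 (-0.19). On this mean both mdx/Ripk3mKO libraries (library 1 at -0.05) lay above both mdx libraries (library 1 at -0.10), where 21% of single genes did so. The wt libraries overlapped both groups, and differences in the mean were not tested. The members differed in how far they followed this mean. Pearson r with it was 0.91 for Phgdh, 0.76 for Atf4, 0.62 for Trib3, 0.58 for Psat1 and 0.54 for Shmt2. For Sesn2, Mthfd2 and Chac1 r was 0.12, 0.11 and 0.09, and for Ddit3 and Asns -0.48 and -0.54. The 5 other genes whose values were most like this mean were Sf1, Hspbp1, Ppil1, Hcfc1 and Gnb1. Their Pearson r was 0.996, 0.992, 0.987, 0.985 and 0.982 over 6 libraries. They were picked as the highest r among 6473 candidates with a mean of at least 500 scaled counts, so r has no test here. The splicing factor Sf1, the first of them, had 6784 and 6127 scaled counts in wt, 6259 and 6066 in mdx, with 6326 and 6822 in mdx/Ripk3mKO.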

How the data were processed

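RNA was sequenced in 6 libraries (2 wt, 2 mdx, 2 mdx/Ripk3mKO) with a stranded low-input total RNA kit, per the labels. Listed in the submitters' processing notes, without roles, are the build mm10 and the tools DESeq2 1.18.1, featureCounts 1.6.3, STAR 2.6.1d and Trimmomatic 0.36. The deposited values were treated as a score: whole numbers with size factors of 1.002 in every column and with small numbers skipped or doubled at regular steps, as in counts scaled and rounded by the authors. Divisors estimated from those steps ran from 0.87 to 1.21. The scaling hides depth and bars count models.

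limma 3.58.1 (R 4.3.3, statmod 1.5.0) was fitted to log2(scaled count + 1) over all 6 libraries with genotype as the only term, a variance trend and robust moderation. This left 3 residual degrees of freedom before moderation. Genes at 10 or more in at least 2 libraries were tested (14077; 438 left out), with Benjamini-Hochberg adjustment over all of them and a threshold of 0.05. Fold changes on this scale understate changes of low genes. The fit was tested on simulated data, and the outcome is not reported here. GC content and exon length came from GENCODE M21, and promoters from RefSeq.

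The members, the lists and the rules were chosen with earlier results of these data known. From each list the 3 genes with the smallest p in any comparison are named, with the eIF2 kinases and phosphatase subunits (1 gene that the rule picks is not reported here), and giving Fgf21 in more than one comparison was chosen after its values were seen. Alternatives covered the pseudocount, filter, scaling, moderation, groups fitted, GC and length, and each library.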

Additional observations from a re-analysis of the deposited data

How the results depend on the processing

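None of the 10 genes was called under any of the 15 alternatives in any comparison, leaving out each library included. When single libraries were left out, the median over the members was -0.057 (without wt library 2) to 0.020 (without wt library 1) in mdx against wt, -0.0048 to 0.045 in mdx/Ripk3mKO against mdx (without mdx/Ripk3mKO library 2 and 1) and -0.015 to 0.025 in mdx/Ripk3mKO against wt. Signs of uncalled members turned in 37 of 430 recomputed values, all of them with a reported difference of at most 0.11 on the log2 scale, and the cause was not tested. With GC and length correction the median in mdx/Ripk3mKO against mdx was -0.017, with Atf4 at -0.0051, Trib3 at -0.019, Chac1 at -0.049, Sesn2 at -0.029, Mthfd2 at -0.016 and, in the wider pathway, Atf5 at -0.0029. Trib3 was then at 0.0097 in mdx against wt, and in mdx/Ripk3mKO against wt Atf4 was at -0.0083, Trib3 at -0.0092 and Shmt2 at -0.024. With quantile normalization, Mthfd2 was at 0.0032 in mdx against wt and -0.015 in mdx/Ripk3mKO against mdx, where Ddit3 was at 0.022.

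Where a library was left out, the lone library of its group is assumed to vary like the other groups. With libraries left out in turn, values in mdx against wt ran from -0.093 to 0.046 for Atf4, -0.20 to 0.075 for Ddit3, -0.14 to 0.10 for Trib3, -0.022 to 0.042 for Psat1 and -0.048 to 0.039 for Mthfd2. In mdx/Ripk3mKO against mdx they ran from -0.064 to 0.19 for Trib3, -0.016 to 0.050 for Chac1, -0.053 to 0.013 for Psat1, -0.045 to 0.047 for Mthfd2 and -0.085 to 0.013 for Eif2ak2. In mdx/Ripk3mKO against wt they ran from -0.034 to 0.10 for Atf4, -0.25 to 0.034 for Ddit3, -0.084 to 0.17 for Trib3, -0.060 to 0.013 for Asns, -0.043 to 0.023 for Psat1, -0.050 to 0.042 for Mthfd2, -0.11 to 0.14 for Eif2ak3 and -0.56 to 0.25 for Fgf21, the last 2 set by the mdx/Ripk3mKO libraries.

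The count of all genes called depended on single libraries. In mdx/Ripk3mKO against mdx it was 29 as reported, 278 without mdx/Ripk3mKO library 1, 2 without either wt library, 13 and 1 without mdx library 1 and 2, 8 with GC and length correction, 1 without a trend or robust fitting, 2 with only those groups fitted and 18 with a filter at 50. In mdx against wt it was 1 as reported, 103 with only those groups fitted or without either mdx/Ripk3mKO library, and 0 without any one of the wt or mdx libraries. In mdx/Ripk3mKO against wt it was 0, and 20 without mdx/Ripk3mKO library 2.

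A replicate block could be fitted only for mdx/Ripk3mKO against wt, since both mdx columns carry one header. With it 0 members and 0 genes in all were called. The deviations of same-numbered wt and mdx/Ripk3mKO libraries had a correlation of -0.01, so the numbers do not pair the libraries. Depth limits Ddit3, Trib3, Chac1 and Sesn2 most, with counting errors of 0.08 to 0.20 on the log2 scale for a pair of libraries.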
